A study of Mus musculus with 29 samples.

Results

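The epithelial alarmins interleukin-33 (Il33), thymic stromal lymphopoietin (Tslp) and interleukin-25 (Il25) were followed here in lung DNA together with the receptor chains through which they act, namely Il1rl1 and Il1rap, Crlf2 and Il7r, and Il17rb. Members were all windows that the deposited table of percent 5-methylcytosine assigns to 1 of these 8 gene names, which gave 52 of the table's 260686 windows. A window spans 100 cytosines in CpG sequence, and its value is the percent DNA methylation (%DNAm) averaged over its bases. The 52 windows divided into 10 for Il33, 8 for Il1rl1, 20 for Il1rap, 2 for Tslp, 6 for Crlf2, 3 for Il7r, 2 for Il25 and 1 for Il17rb, and they are numbered below from the beginning of each gene in its direction of transcription. The table has 3 further windows over Il17rb under the name of its neighbour Actr8, so that the Il17rb window covered 18.6% of that gene.

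The lungs came from Balb/c offspring, female and 13 weeks old per the methods of the study, in 4 groups of separate libraries. Sham (n = 7) had saline-treated dams and received PBS in place of an allergen, Sham-OVA (n = 7) had saline-treated dams and was sensitised to and challenged with ovalbumin (OVA), PM (n = 7) had dams given fine airborne particulate matter and received PBS, and PM-OVA (n = 8) had both exposures. PBS is the control agent in the labels, where the methods of the study describe nebulised saline. OVA is an egg protein that induces allergic airways disease in mice, and the dams were treated before mating, through gestation and until weaning. The labels give the tissue as lung with the suffix RML, where the methods name the right lower lobe, and they do not tie animals to dams or litters, so p-values measure the spread between libraries. Whole lung DNA holds many cell types, and a changed share of a cell type and a changed methylation within a cell cannot be told apart in it.

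Alarmins are released or secreted by airway epithelium and other barrier cells after damage or allergen contact, and they act on group 2 innate lymphoid cells (ILC2), mast cells and T helper 2 cells. IL-33 binds ST2, the product of Il1rl1, which then recruits the shared co-receptor encoded by Il1rap. TSLP binds a pair of chains encoded by Crlf2 and Il7r, and IL-25, a product of tuft cells, binds the Il17rb chain together with that of Il17ra. Il1rl1 is known to use a distal promoter in haematopoietic cells such as mast cells and a proximal promoter in fibroblasts, where it also yields a soluble decoy form.

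The sequences just upstream of the starts differed in how many CpGs a methylation window can read there. RefSeq promoter entries (GRCm38.p6) matched 6 of the 8 genes, all but Tslp and Il25, with 8 promoters in all, and 250 bases upstream of the start were read from each. The upstream promoter of Il33 and both promoters of Il1rl1 lie in windows that fell after OVA challenge, the distal Il1rl1 window in both maternal groups and the others in PM alone by the test, as did the windows at the starts of Il7r and Il17rb. These 3 are printed 5′ to 3′ beside the CpG-rich promoter of Crlf2, with CpG dinucleotides in capitals, except that in the distal Il1rl1 promoter, which has no CpG, the capitals mark GATAA, the core of the site read by GATA factors.

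Il33 upstream promoter, chr19:29924863-29925112, plus strand: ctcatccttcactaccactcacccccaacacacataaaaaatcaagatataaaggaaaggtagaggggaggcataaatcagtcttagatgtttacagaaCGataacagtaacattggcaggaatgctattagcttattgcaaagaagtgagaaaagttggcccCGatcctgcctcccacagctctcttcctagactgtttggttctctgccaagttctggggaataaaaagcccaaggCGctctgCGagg

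Il1rl1 distal promoter, chr1:40429320-40429569, plus strand: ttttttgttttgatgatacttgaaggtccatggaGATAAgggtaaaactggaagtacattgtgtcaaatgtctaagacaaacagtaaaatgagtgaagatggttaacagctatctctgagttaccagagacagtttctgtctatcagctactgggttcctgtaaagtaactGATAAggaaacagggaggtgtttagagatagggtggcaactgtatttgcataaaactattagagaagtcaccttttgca

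Il1rl1 proximal promoter, chr1:40439379-40439628, plus strand: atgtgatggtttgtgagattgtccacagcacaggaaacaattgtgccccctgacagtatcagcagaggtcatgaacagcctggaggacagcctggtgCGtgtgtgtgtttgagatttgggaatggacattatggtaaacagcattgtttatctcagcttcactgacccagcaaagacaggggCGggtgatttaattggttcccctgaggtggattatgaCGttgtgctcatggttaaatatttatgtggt

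Crlf2 promoter, chr5:109558994-109559243, minus strand: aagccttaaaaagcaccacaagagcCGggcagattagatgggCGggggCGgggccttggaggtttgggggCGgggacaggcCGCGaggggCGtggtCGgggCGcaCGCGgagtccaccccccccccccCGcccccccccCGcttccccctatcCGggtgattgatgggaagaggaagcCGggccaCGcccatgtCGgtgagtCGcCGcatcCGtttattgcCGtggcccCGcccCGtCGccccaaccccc

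Both Il33 promoters held 4 CpGs, the distal and proximal Il1rl1 promoters 0 and 3, and that of Il7r 1, where the median over 32851 promoters was 6. Those of Crlf2, Il1rap and Il17rb held 24, 30 and 27. GATAA, searched on both strands, was found 2 times in the distal Il1rl1 promoter, 1 time each in the upstream Il33 promoter and (on the other strand) the proximal Il1rl1 promoter, and in 22.6% of all promoters of this length. Since the distal Il1rl1 promoter has no CpG in these bases, the values of the window around it come from CpGs outside them.

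Member windows covered nearly the whole range of methylation levels. In Sham, member windows had a median of 78.3% DNAm beside 76.9% over all tested windows. The window at the first start of Il1rap and windows 2 and 3 of Crlf2, of which window 2 holds the second annotated Crlf2 start, were the 3 members under 10% DNAm. Window 1 of Crlf2, with the first annotated start at its edge, was at 50.1% ± 2.48. Windows at the starts of Tslp and Il17rb were at 29.1% ± 1.49 and 35.3% ± 0.935 (SD, n = 7), and those at the first starts of Il33, Il7r and Il1rl1 were at 64.2% ± 1.34, 65.97% ± 2.14 and 77.7% ± 1.49. The SD within a group had a median of 1.45 points over member windows.

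**Figure D1:**
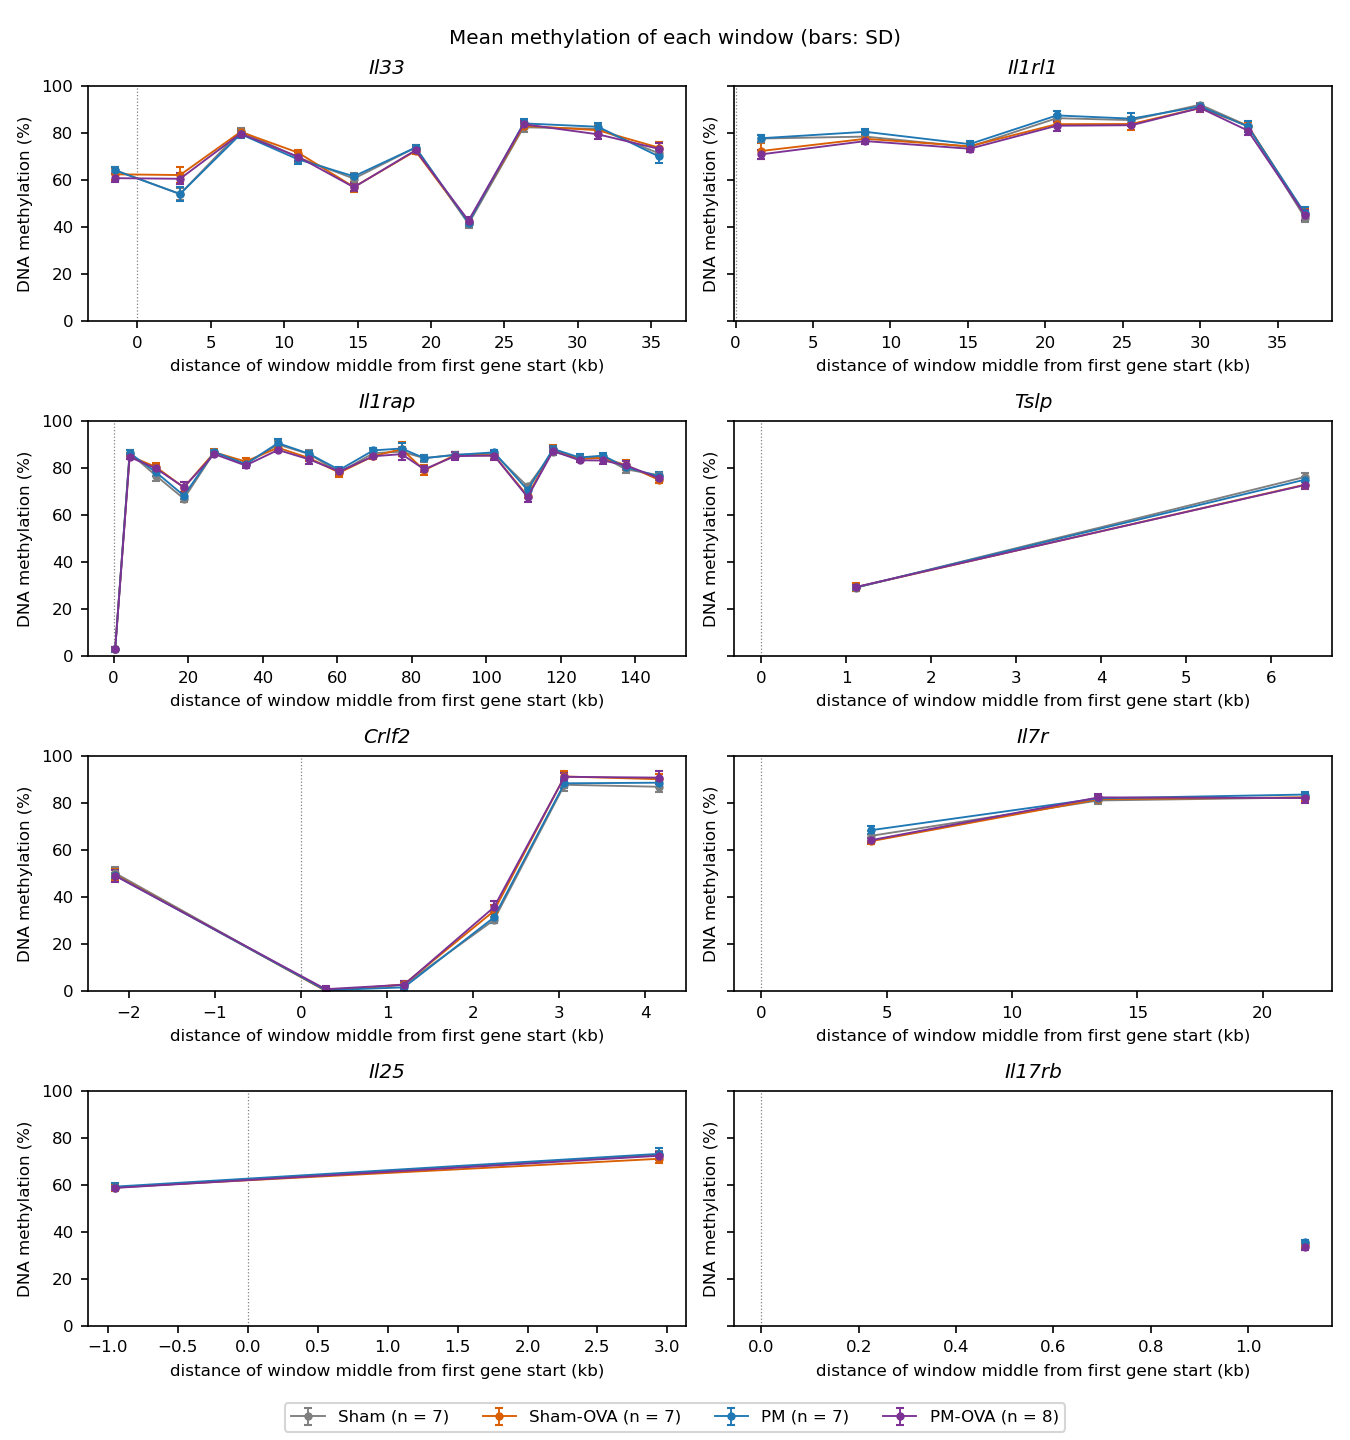
Mean %DNAm of each member window (y axis, percent) in the 4 groups against the distance of the window's middle from the first annotated start of its gene (x axis, kb), with bars of 1 SD. Il1rap was close to 0% at its first start and Crlf2 in windows 2 and 3, Il33 had a low point of 41.4% in Sham inside the gene, and the 4 groups lay close to each other.

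All 52 windows had a value in all 29 libraries and were tested by limma on a log2 ratio of methylated to unmethylated percent, with Benjamini-Hochberg adjustment over 259167 windows. A window is said to have risen or fallen where its adjusted p was under 0.05, and a differentially methylated region (DMR) also needs a difference of at least 10 percentage points. One library, Sham replicate 1, had values in 1224 of 1230 windows on chromosome Y where the other 28 libraries had 29 to 46. This is at odds with the female sex that the methods give for the animals, and its cause was not tested. No member lies on that chromosome, and the counts without this library were 13 for OVA in Sham and 23 for OVA in PM, as with it.

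OVA challenge changed a minority of the alarmin and receptor windows, each by under 10 points. In Sham offspring 13 of the 52 windows changed, 6 upward and 7 downward, against 35.6% of all tested windows (13.3% upward and 22.3% downward). In PM offspring 23 of 52 changed, 5 upward and 18 downward, against 44.1% of all windows (9.26% and 34.8%). Of the 52, 10 changed in the same direction in both comparisons, beside 27.3% of all windows. There was no DMR among the members for either comparison, where 0.775% of all windows were DMRs for OVA in Sham and 0.584% for OVA in PM. At an unadjusted p under 0.05 there were 20 and 25 members, beside 45% and 51.4% of all windows. By adjusted p the shares of members were below the background in Sham and at it in PM. Over members the median difference after OVA challenge was -0.0921 points (Sham) and -0.839 points (PM), beside -0.414 and -1.03 points over all windows. Centring the libraries on a common median gave 14 windows in Sham (8 upward) and 21 in PM (11 upward and 10 downward). It moved the upward share of calls over the whole table from 37.3% to 50.2% in Sham and from 21.02% to 51.6% in PM. With centring 36.9% of all windows passed in Sham and 42.2% in PM, and centred counts below are to be read beside these shares.

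**Figure D2:**
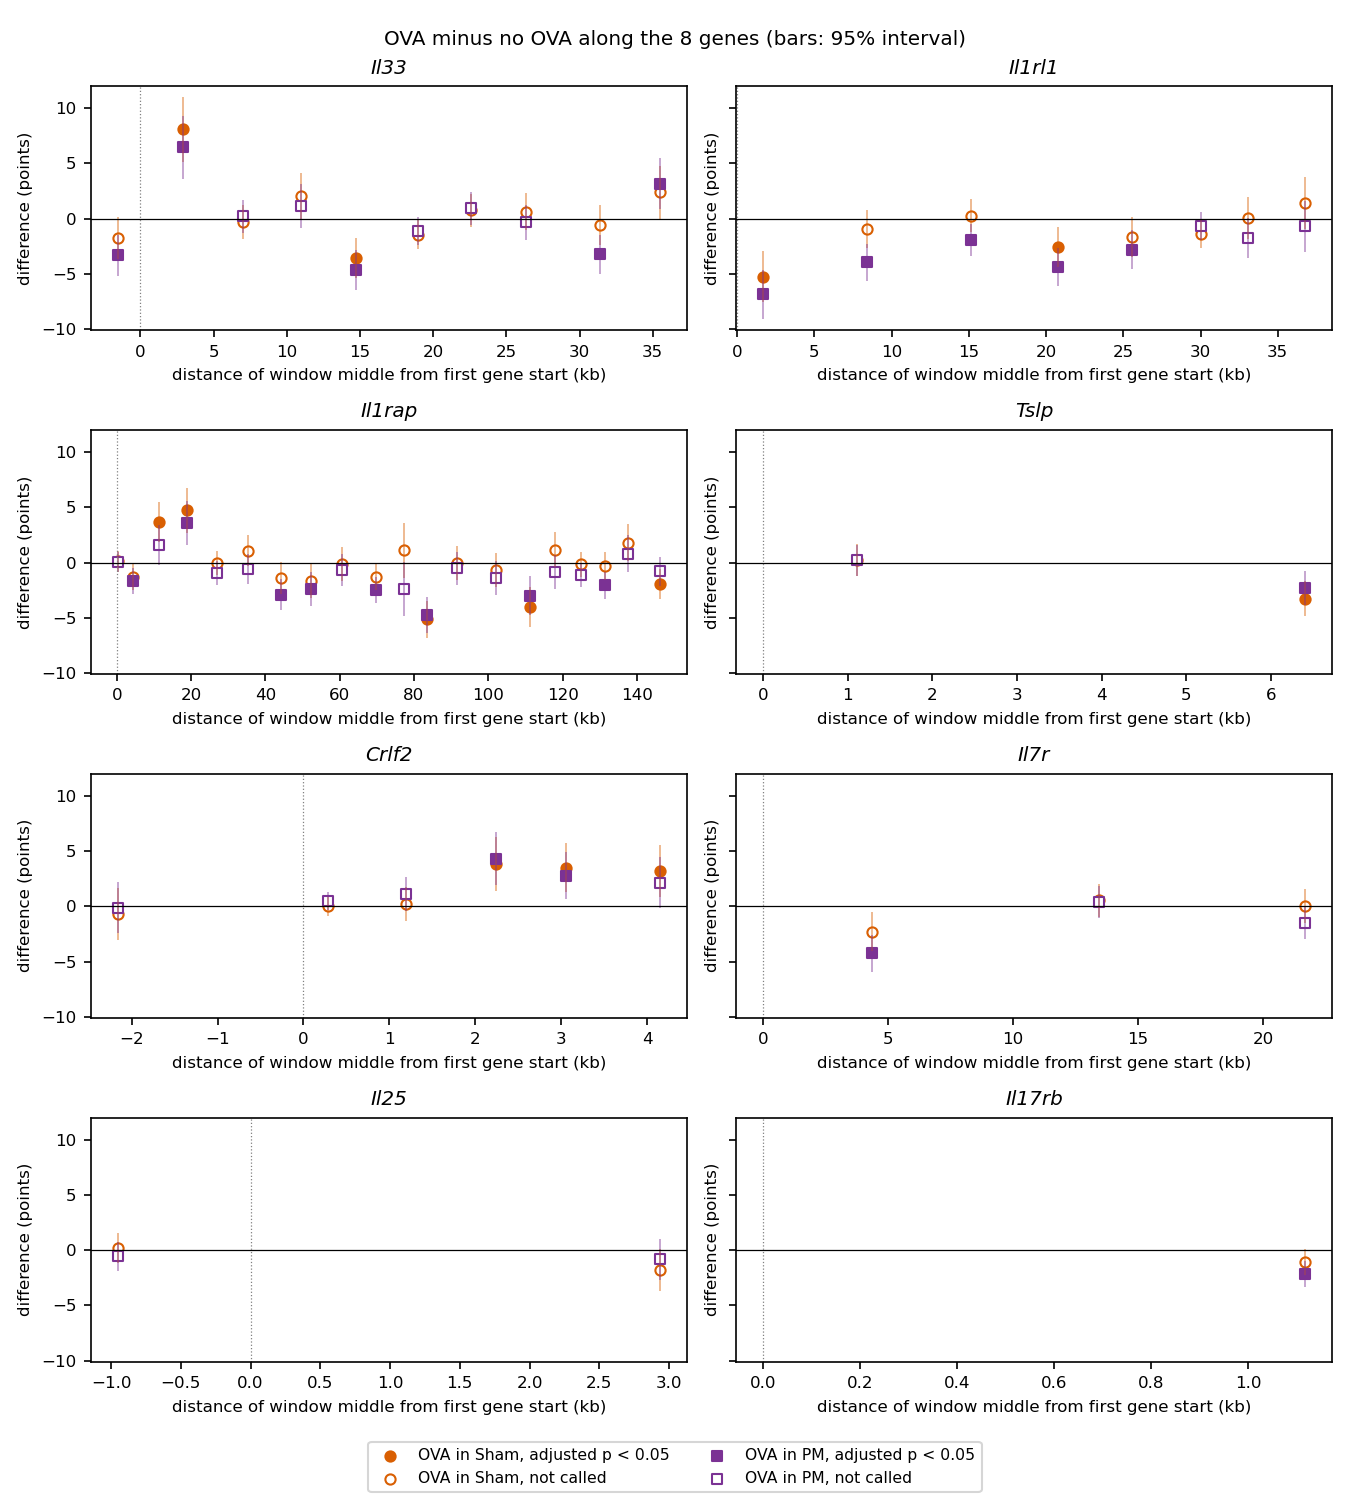
Difference in %DNAm between OVA-challenged and unchallenged offspring (y axis, percentage points) for every member window against its distance from the first annotated start of the gene (x axis, kb), with 95% intervals. Circles are Sham-OVA minus Sham and squares PM-OVA minus PM, filled where the adjusted p was under 0.05. The highest point is window 2 of Il33 (8.08 and 6.48 points) and the lowest are window 1 of Il1rl1 and window 12 of Il1rap.

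Il33, the ligand of ST2 and a nuclear cytokine that epithelial and endothelial cells store, held the greatest rise of any member window. Window 2 (chr19:29926168-29929871), which lies wholly in the first intron just downstream of the upstream start, had values of 50.8, 53.9 and 58.0% DNAm (lowest, median and highest) in Sham and 56.4, 61.9 and 67.1% in Sham-OVA. It had 51.2, 54.0 and 59.4% in PM and 57.7, 60.6 and 63.7% in PM-OVA. Of the challenged offspring, 6 of 7 Sham-OVA libraries lay above every Sham library and 5 of 8 PM-OVA libraries above every PM library, and the other 1 and 3 overlapped with the controls. In Sham the rise was 8.08 points (95% interval 5.15 to 11.0, limma adjusted p = 0.000104), and in PM it was 6.48 points (3.63 to 9.32, adjusted p = 0.000652). A difference of this size or larger in either direction was seen in 1.64% and 2.60% of all windows.

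The window before it, Il33 window 1 (chr19:29921087-29926108), holds the upstream start, and it moved downward. Its level was 64.2% ± 1.34 in Sham, 62.4% ± 2.49 in Sham-OVA, 64.1% ± 1.60 in PM and 60.8% ± 1.61 in PM-OVA (SD, n = 7, 7, 7 and 8). The difference of -3.33 points in PM passed the test (limma adjusted p = 0.00618), and the difference in Sham was -1.76 points (adjusted p = 0.169). In PM, the adjoining windows 1 and 2 thus moved in opposite directions.

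Il33 window 5 (chr19:29937742-29941987), mostly intronic with 120 bases of untranslated exon, fell after OVA challenge in both maternal groups. Its lowest, median and highest values were 57.6, 60.7 and 63.8% in Sham against 54.4, 57.2 and 59.4% in Sham-OVA, and 60.3, 61.6 and 62.9% in PM against 54.3, 56.9 and 58.9% in PM-OVA. No PM-OVA library reached the lowest PM library, whereas the Sham groups overlapped. The differences were -3.57 points (limma adjusted p = 0.00489) and -4.67 points (adjusted p = 0.000221). Window 6, which holds the internal start used by the shorter Il33 transcript (chr19:29942025-29946107), stood at 73.8% ± 1.02 in Sham and had differences of -1.46 and -1.15 points (adjusted p = 0.0994 and 0.165). Window 8 with a further annotated start had 0.642 and -0.341 points (adjusted p = 0.618 and 0.724). Of the 5 other Il33 windows none changed in Sham, and in PM 1 rose and 1 fell within a range of -3.22 to 3.17 points.

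Tslp, whose product primes dendritic cells and ILC2, had no detectable change at its start. Tslp window 1 (chr18:32815079-32817915), which covers both annotated starts and overlaps 4930455D15Rik, had 26.6, 29.7 and 30.6% in Sham, 26.9, 29.1 and 32.2% in Sham-OVA, 28.1, 28.9 and 30.3% in PM, and 27.8, 29.4 and 30.8% in PM-OVA. The ranges of the 4 groups overlapped, that of PM lying within those of both Sham groups. The differences were 0.217 points (95% interval -1.26 to 1.69, limma adjusted p = 0.858) and 0.189 points (-1.24 to 1.62, adjusted p = 0.860). Window 2 over the end of the gene (chr18:32817916-32825653) fell in Sham from 76.2% ± 1.80 to 72.9% ± 0.982, by 3.30 points (adjusted p = 0.00205), and in PM, where it fell by 2.29 points, from 75.0% ± 1.15 to 72.7% ± 1.75 (adjusted p = 0.0215). The fall in PM did not pass with the libraries centred (-1.31 points, adjusted p = 0.197), and this window overlaps 2 other annotated genes.

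Neither window of Il25, the alarmin of tuft cells, passed the test. Il25 window 1 (chr14:54929253-54934241), with the start, stood at 58.8% ± 1.23 in Sham, 59.0% ± 1.498 in Sham-OVA, 59.3% ± 1.36 in PM and 58.7% ± 0.871 in PM-OVA. The differences were 0.186 and -0.546 points (limma adjusted p = 0.869 and 0.570). Window 2 (chr14:54934242-54937021), which also overlaps Cmtm5, had differences of -1.77 and -0.813 points (adjusted p = 0.166 and 0.488).

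**Figure D3:**
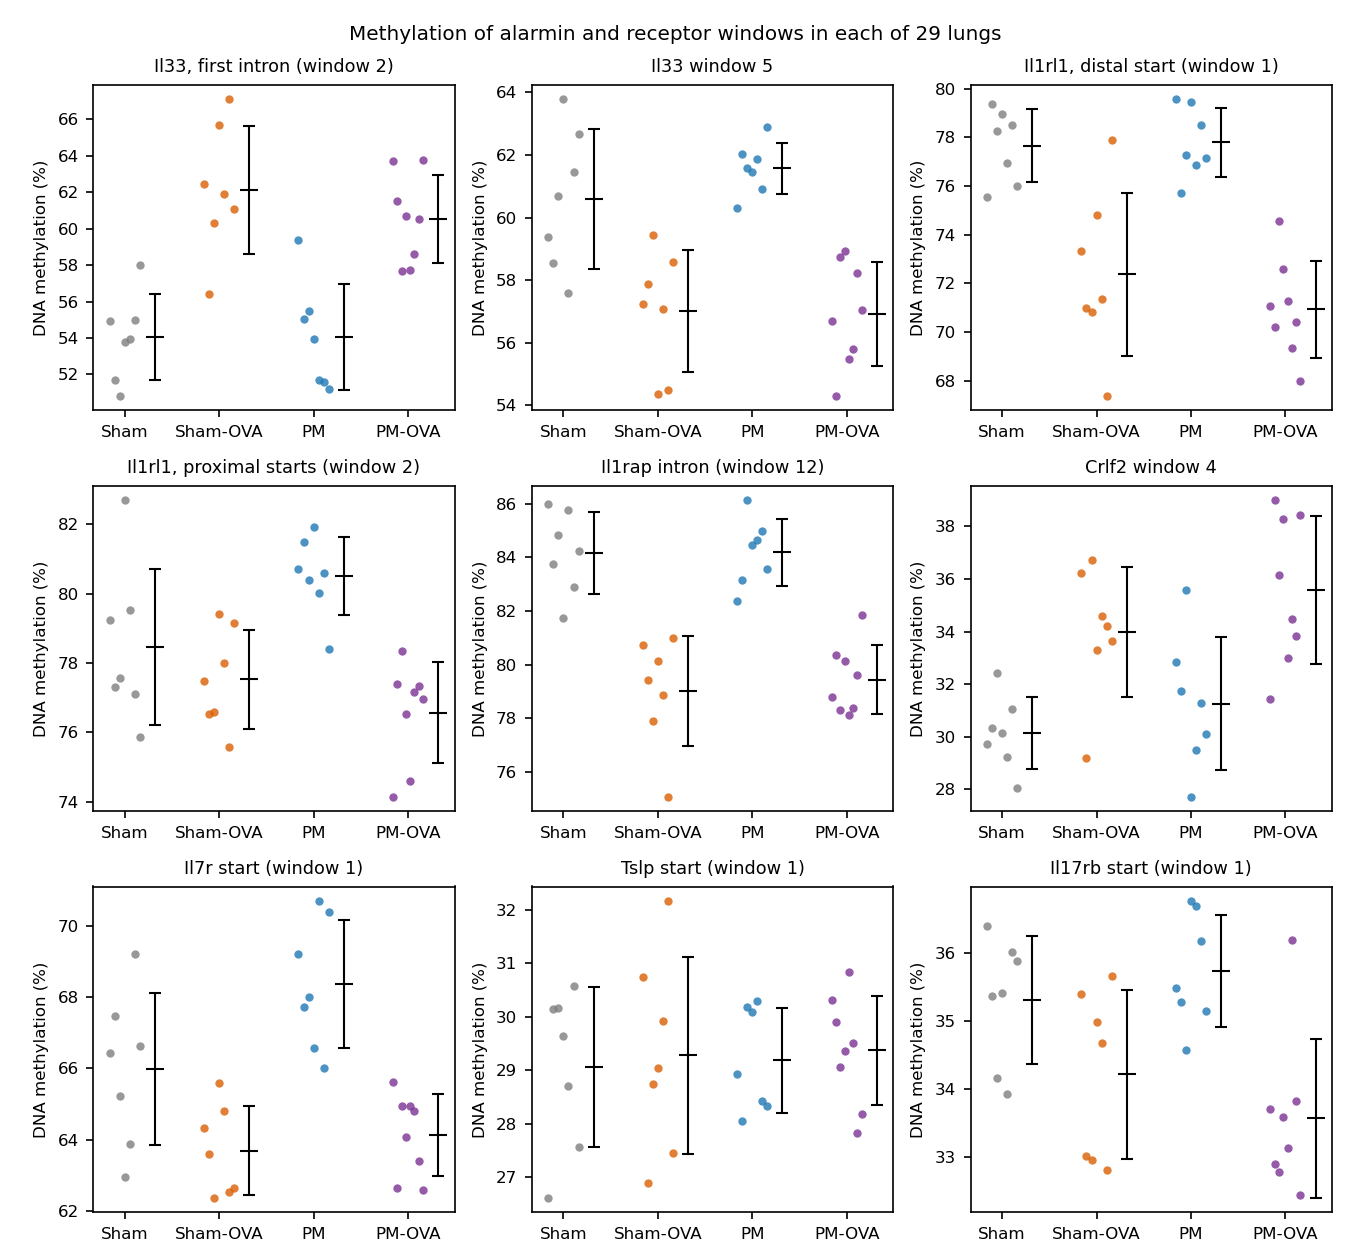
%DNAm (y axis, percent, not starting at 0) of 9 member windows in each of the 29 libraries (points) by group, with the mean and SD beside them. The OVA-challenged groups lie higher for Il33 window 2 and Crlf2 window 4, lower for Il33 window 5, Il1rl1 window 1, Il1rap window 12 and, in PM, Il7r window 1, and level with the controls for Tslp window 1.

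Among receptors, the window at the distal start of Il1rl1 fell after OVA challenge in both maternal groups. Over the gene, 2 of 8 windows fell in Sham, near the 22.3% of all windows that fell there, and 3 of 8 had positive differences. In PM 5 of 8 fell, beside 34.8% of all windows. Il1rl1 window 1 (chr1:40427406-40435080) holds the distal start and bases on either side of it, of which 61 are exonic. Its lowest, median and highest values were 75.6, 78.3 and 79.4% in Sham and 67.4, 71.4 and 77.9% in Sham-OVA, and they were 75.7, 77.3 and 79.6% in PM and 68.0, 70.7 and 74.6% in PM-OVA. The PM groups did not overlap, which held for 12% of all windows, and in Sham 1 challenged library lay within the range of the controls. In Sham the difference was -5.29 points (95% interval -7.59 to -2.98, limma adjusted p = 0.000595), and in PM it was -6.85 points (-9.09 to -4.62, adjusted p = 1.46e-05). Falls of at least this size occurred in 2.26% and 1.22% of all windows.

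Il1rl1 window 2 (chr1:40435081-40440820) holds the proximal start and the other annotated starts of full-length and soluble ST2. It had 75.9, 77.6 and 82.7% in Sham and 75.6, 77.5 and 79.4% in Sham-OVA, and these groups covered much the same range. It had 78.4, 80.6 and 81.9% in PM and 74.1, 77.1 and 78.4% in PM-OVA, without overlap. The differences were -0.940 points in Sham (limma adjusted p = 0.395) and -3.95 points in PM (adjusted p = 0.000379). The test of the difference between these effects is given with the maternal comparisons. Of the 6 remaining windows, 1 fell in Sham and 3 fell in PM, within ranges of -2.56 to 1.42 and -4.38 to -0.672 points. All 8 Il1rl1 windows were below 0 in PM as deposited and 6 of 8 were with the libraries centred, when 3 in place of 5 passed the test.

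Il1rap, the co-receptor that IL-33, IL-1 and IL-36 receptors share, changed in both directions along its 148414 bases. Window 12 (chr16:26661823-26668372), wholly intronic, had 81.7, 84.2 and 86.0% in Sham and 75.1, 79.4 and 81.0% in Sham-OVA, and 82.4, 84.5 and 86.1% in PM and 78.1, 79.2 and 81.9% in PM-OVA. Challenged and unchallenged libraries did not overlap in either maternal group, which held for 8.58% and 12% of all windows. The differences were -5.15 points (95% interval -6.81 to -3.49, limma adjusted p = 1.64e-05) and -4.75 points (-6.36 to -3.14, adjusted p = 1.89e-05). The window at the CpG-rich start of Il1rap (chr16:26581565-26582641) was at 2.80% ± 0.457 in Sham, 2.89% ± 0.724 in Sham-OVA, 2.76% ± 0.953 in PM and 2.80% ± 0.847 in PM-OVA, with differences of 0.0964 and 0.0420 points (adjusted p = 0.905 and 0.923).

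Windows 7, 19 and 20 of Il1rap have starts of partial transcripts. Window 7 fell by 2.91 points in PM without overlap (limma adjusted p = 0.00130), and its difference in Sham was -1.38 points (adjusted p = 0.145). Window 19 had 1.79 and 0.815 points (adjusted p = 0.0961 and 0.409), and with the libraries centred it passed in both comparisons (2.18 and 1.79 points, adjusted p = 0.0284 and 0.0487). Window 20 fell by 1.92 points in Sham (adjusted p = 0.0334), which did not pass with centring or with only the groups compared, and had -0.788 points in PM (adjusted p = 0.339). Of the other 15 windows, 2 rose and 1 fell in Sham (range -4.05 to 4.72 points) and 1 rose and 5 fell in PM (-2.99 to 3.58 points).

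Crlf2, the TSLP-binding chain, was the member whose calls were all upward. The start lies in windows 1 and 2, of which window 2 (chr5:109558430-109558980) was listed at 0% in the median Sham library and at up to 3.31% in PM-OVA. Window 1, upstream of the gene (chr5:109558987-109563313), was at 50.1% ± 2.48 in Sham and had differences of -0.665 and -0.122 points (limma adjusted p = 0.700 and 0.943). Window 2 had 0.00891 and 0.452 points (adjusted p = 0.954 and 0.392), and window 3 had 0.219 and 1.12 points (adjusted p = 0.742 and 0.190) at a Sham level of 2.54% ± 1.49.

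The windows of Crlf2 that passed were in the body of the gene, where levels were higher than in windows 2 and 3. Centring moves every window of a library by the same number of points, except that values which would fall below 0% are held at 0%. Both weigh most on windows near 0%. It moved the PM differences of windows 2 and 3 from 0.452 to 1.03 and from 1.12 to 2.08 points, past the threshold (limma adjusted p = 0.00791 and 0.0170), and window 6 passed too. The calls of windows 2 and 3 with centring are not read as a rise. Window 4 (chr5:109556348-109557155), with coding exons and the start of a partial transcript, had 28.1, 30.2 and 32.4% in Sham and 29.2, 34.2 and 36.7% in Sham-OVA, and 27.7, 31.3 and 35.6% in PM and 31.4, 35.3 and 39.0% in PM-OVA. All but 1 Sham-OVA library were above the Sham range, and the PM groups overlapped. The rises were 3.84 points (95% interval 1.36 to 6.33, limma adjusted p = 0.0160) and 4.32 points (1.91 to 6.72, adjusted p = 0.00495). Window 5 (chr5:109555523-109556340) rose by 3.52 points from 87.7% ± 2.56 to 91.2% ± 2.22 in Sham (adjusted p = 0.00832), and in PM it rose by 2.77 points from 88.3% ± 1.86 to 91.1% ± 1.63 (adjusted p = 0.0231). The call in PM was lost in 2 of 29 fits that left out 1 library. The remaining window 6 rose by 3.22 points in Sham, and its difference in PM was 2.16 points (adjusted p = 0.0713).

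Il7r, the chain that TSLP shares with IL-7 and a marker of lymphoid cells, fell at its start in PM. Il7r window 1 (chr15:9521239-9530396), with all 4 annotated starts, had 63.0, 66.4 and 69.2% in Sham and 62.4, 63.6 and 65.6% in Sham-OVA, and 66.002, 68.0 and 70.7% in PM and 62.6, 64.4 and 65.6% in PM-OVA. Every PM-OVA library lay below every PM library, and the Sham groups overlapped. In PM the difference was -4.25 points (95% interval -5.92 to -2.57, limma adjusted p = 0.000277), and in Sham it was -2.28 points (-4.01 to -0.549, adjusted p = 0.0509). The other 2 windows had differences between -1.48 and 0.548 points and neither passed.

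The window at the start of Il17rb, the IL-25-binding chain of ILC2 (chr14:30006526-30009032, also over Chdh), had 33.9, 35.4 and 36.4% in Sham, 32.8, 34.7 and 35.7% in Sham-OVA, 34.6, 35.5 and 36.8% in PM, and 32.4, 33.4 and 36.2% in PM-OVA. It fell by 2.16 points in PM (limma adjusted p = 0.00802), and the difference in Sham was -1.09 points (adjusted p = 0.206). With the libraries centred the difference in PM was -1.18 points and did not pass (adjusted p = 0.143). The 3 further windows over Il17rb, named Actr8 in the table, had adjusted p-values of 0.242 to 0.911 in Sham and 0.0913 to 0.733 in PM.

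When the windows of a gene were averaged on the log2 ratio scale and 38141 genes were tested, Il1rl1 was the member that passed in both OVA comparisons. In Sham, 2 of the 8 genes passed, Il1rl1 (-1.26 points, limma adjusted p = 0.0250) and Tslp (-1.54 points, adjusted p = 0.0200), beside 36.1% of all genes (25.6% downward). In PM, 5 of 8 passed beside 51.3% of all genes (45.2% downward), and 6 of 8 had an unadjusted p under 0.05, beside 57.4%. Il1rl1 (-2.88 points, adjusted p = 2.23e-05), Il1rap (-1.13 points, adjusted p = 0.00112), Il7r (-1.77 points, adjusted p = 0.0191) and Il17rb fell, and Crlf2 rose (1.78 points, adjusted p = 0.00470). Il33, whose windows moved both ways, had gene means of 0.622 and -0.0753 points (adjusted p = 0.384 and 0.739). With the libraries centred the genes that passed in Sham were Il33 (adjusted p = 0.0365) and Crlf2 (0.0139), and in PM they were 2, Il1rl1 (0.000574) and Crlf2 (2.70e-05). The gene mean of Crlf2 includes its windows near 0%, where centring moves the log2 ratio most, and its log2 difference in PM went from 0.31 to 0.56.

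No member window passed for maternal PM exposure, either without OVA challenge (PM against Sham) or with it (PM-OVA against Sham-OVA). Of all windows 0% passed in each, and 5.79% and 5.96% had an unadjusted p under 0.05, beside 3 and 2 of the 52 members. The groups overlapped in every member window, where 0.0872% and 0.0301% of all windows had no overlap. The member with the smallest p without OVA challenge was Il7r window 1, at 65.97% ± 2.14 in Sham and 68.4% ± 1.81 in PM, a difference of 2.40 points (95% interval 0.671 to 4.13, limma adjusted p = 0.82898). With OVA challenge it was the intronic Il1rap window 6, at 82.7% in Sham-OVA and 81.1% in PM-OVA, a difference of -1.70 points (-3.05 to -0.347, adjusted p = 0.816). For the difference between the OVA effects in PM and in Sham, 0% of all windows passed, 7.40% had an unadjusted p under 0.05, and 4 of the 52 members did. Its smallest p among members was at the proximal Il1rl1 starts, where the effect in PM was lower by 3.01 points (interval -5.40 to -0.609, adjusted p = 0.622). For Il7r window 1 the effect in PM differed from that in Sham by -1.97 points (interval -4.38 to 0.438) and for Il17rb window 1 by -1.07 points (-2.72 to 0.590), so that a difference between the maternal groups was not shown. No gene mean passed either, and in the maternal comparison without OVA, that with OVA and the test of the difference between OVA effects, 1, 0 and 2 of 8 had an unadjusted p under 0.05, beside 6.1%, 6.59% and 9.9% of all genes.

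Il1rl1 lies in a cluster of interleukin receptor genes on chromosome 1 with Il1r2, Il1r1, Il1rl2, Il18r1 and Il18rap, and more windows of these neighbours fell than rose after OVA challenge, unevenly between genes. These 5 genes had 52 windows, of which 25 passed in Sham (20 downward) and 35 in PM (31 downward), beside 2 and 5 of the 8 Il1rl1 windows. The share that fell was 38.5% and 59.6% for the neighbours, where 22.3% and 34.8% of all windows fell. For the 5 neighbours the median difference was -1.26 points (Sham) and -2.48 points (PM) and for Il1rl1 it was -1.15 and -2.39 points, where all windows had -0.414 and -1.03 points. Il18r1, a chain of the IL-18 receptor whose gene overlaps the last Il1rl1 window, had medians of -2.59 and -4.02 points, the lowest of the 5. Il1r2, a decoy receptor of IL-1, had medians of 0.0415 and -0.744 points. Il18rap, the other IL-18 receptor chain, had 1 window that passed in Sham, upward, and 6 of 6 that passed in PM, 5 of them downward. With the libraries centred, 20 of the 52 windows of the neighbours fell in Sham and 23 in PM. Over all windows 36.9% and 42.2% passed with centring, upward and downward about equally often. No window of the cluster was a DMR.

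**Figure D4:**
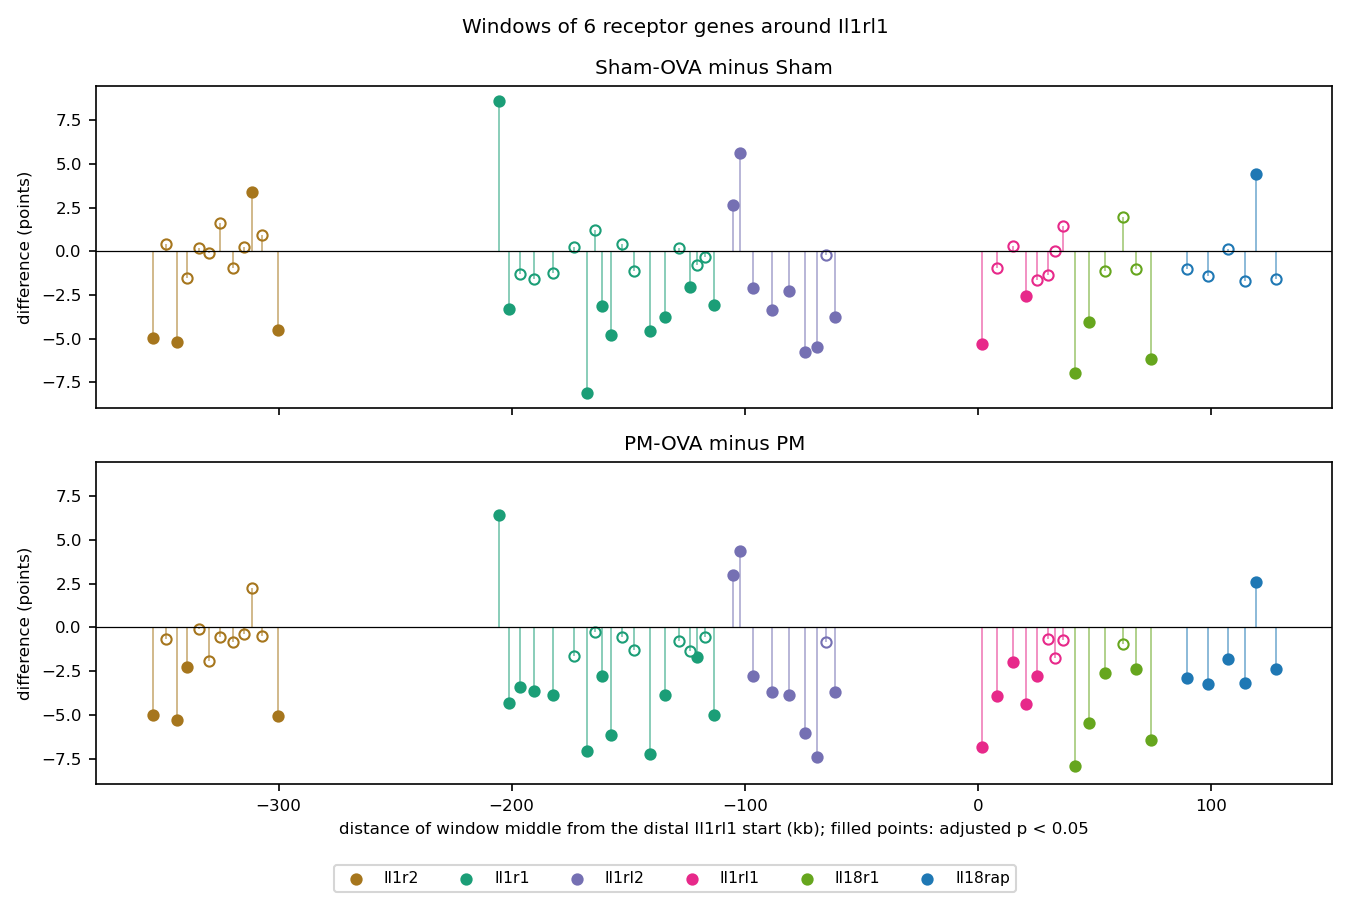
Difference in %DNAm after OVA challenge (y axis, percentage points) of the windows of 6 receptor genes against distance from the distal Il1rl1 start (x axis, kb), for Sham-OVA minus Sham (top) and PM-OVA minus PM (bottom), filled where the adjusted p was under 0.05. Most filled points of Il1rl1 and its neighbours lie below 0, with the lowest point of Il1rl1 at its distal start (-5.29 and -6.85 points).

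Windows with differences of over 10 points were found among genes that act with or downstream of the receptors, beside DMR shares of 0.775% and 0.584% over all windows. There were 4 and 3 DMRs (Sham, then PM) in 191 windows of signalling partners. The ILC2 and type 2 list had 2 and 1 in 275 windows, and other alarmins had 1 and 1 in 48. These counts are small, and the ILC2 share was not above that of all windows. The partners were 15 measured genes that carry or restrain the 3 signals (adaptors, kinases, STAT5 and the IL-25 co-receptor). Of their 191 windows, 44 rose and 39 fell in Sham (23% and 20.4%) and 31 rose and 42 fell in PM (16.2% and 22%). Over all windows 13.3% rose and 22.3% fell in Sham, and 9.26% and 34.8% in PM. With the libraries centred the partner counts were 59 and 32 in Sham and 74 and 27 in PM. The windows given by position for this and the following lists are named because they were DMRs, after their values were seen. Other single genes of the lists, such as Il4, Il13 and Il4ra, were also named after their values were seen. Il17ra, the chain that IL-25 needs beside Il17rb, had 2 adjoining DMRs in its first part. The first (chr6:120464421-120469012, intronic) went from 72.8 to 55.8% in Sham, a difference of -16.9 points, and from 70.5 to 56.9% in PM, a difference of -13.6 points (limma adjusted p = 7.99e-10 and 5.57e-09). The second (chr6:120469013-120474053) had differences of -13.0 and -11.3 points. Over the 8 windows of Il17ra 2 fell in Sham and 3 in PM, and with the libraries centred 2 fell and 2 rose in PM. An intronic window of Stat5b, a transcription factor downstream of TSLP (chr11:100822904-100826237), had differences of -10.8 and -11.3 points (adjusted p = 2.37e-08 and 5.04e-09). The 23 windows of Stat5b went both ways, with 5 upward and 6 downward in Sham and 3 upward and 5 downward in PM (6 and 6, then 9 and 4 with the libraries centred). An intronic window of Traf3ip2, which encodes the adaptor Act1 of IL-17 family receptors (chr10:39626843-39631040), rose by 11.6 points in Sham, and in PM the rise was 9.77 points (adjusted p = 7.73e-07 and 4.19e-06).

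The 17 genes listed for ILC2 and type 2 effector function had 275 windows, 158 of them in Rora, a transcription factor ILC2 require. Of these 275, 27 rose and 104 fell in Sham and 18 rose and 148 fell in PM, with medians of -1.40 and -2.32 points (34 and 91, then 34 and 109 with the libraries centred). Most of the falling windows were in Rora, with 73 in Sham and 104 in PM. In the 117 windows of the other 16 genes 20 rose and 31 fell in Sham and 13 rose and 44 fell in PM, and with the libraries centred these counts were 24 and 24, then 23 and 29. As deposited these are 17.1% upward and 26.5% downward, then 11.1% and 37.6%, near the 13.3% and 22.3%, then 9.26% and 34.8%, of all windows. All windows of Il4 and Il13, among the effector cytokines that alarmins induce, fell in both comparisons (3 of 3 and 2 of 2), with medians of -4.54 and -4.25 points for Il4 and -4.39 and -4.50 points for Il13. Of the 2 windows of Il5, 0 passed in Sham and 1 fell in PM. The 1 window of Il9 did not pass in Sham (-2.09 points, limma adjusted p = 0.0963) and fell in PM (-2.53 points, adjusted p = 0.0333). Il4ra, the receptor chain that IL-4 and IL-13 share, went the other way, with 6 of 10 and 7 of 10 windows upward. Ptgdr2, the prostaglandin D2 receptor of ILC2 and T helper 2 cells, had an exonic window that rose from 20.9 to 35.5% in Sham, by 14.6 points, and in PM by 13.2 points (chr19:10940639-10941318, limma adjusted p = 5.34e-05 and 8.02e-05). Of its 4 windows 2 rose in Sham, and 1 rose and 1 fell in PM. The window at the start of Il5ra, the eosinophil IL-5 receptor (chr6:106745519-106750926), had differences of -10.7 and -9.18 points (adjusted p = 7.75e-07 and 2.94e-06). Among 4 measured genes of other alarmins, 10 of 48 windows rose and 7 fell in Sham, and 5 rose and 9 fell in PM, which became 17 and 3 with the libraries centred. Hmgb1, a nuclear alarmin, held 41 of these windows, of which 7 rose and 5 fell in Sham and 4 rose and 7 fell in PM (11 and 3, then 14 and 1 with the libraries centred). It had 1 intronic DMR (chr5:149067769-149070853) with differences of -11.7 and -11.4 points (adjusted p = 5.96e-07 and 3.11e-07). All 71 other genes with an interleukin symbol, which include several named above, had 640 windows, with 70 upward and 209 downward in Sham and 48 upward and 287 downward in PM, which with the libraries centred became 84 and 178, then 84 and 153.

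**Figure D5:**
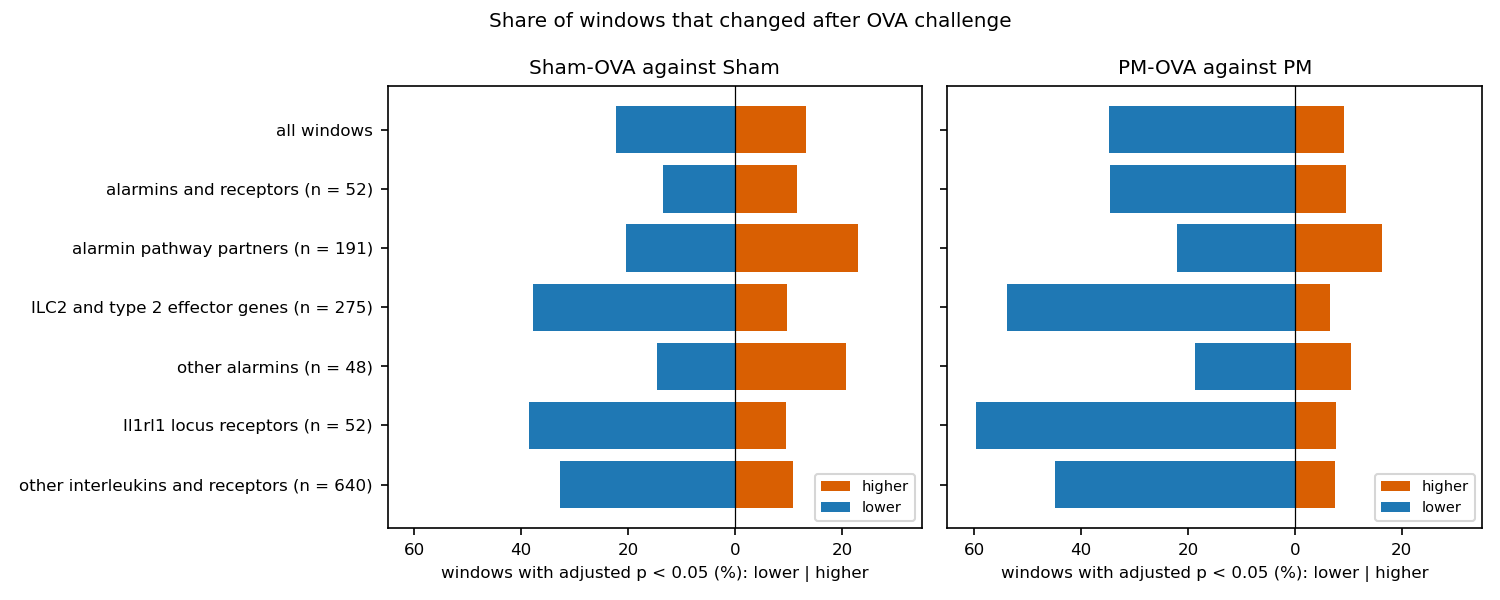
Percent of windows with adjusted p under 0.05 that were lower (left of 0) or higher (right of 0) after OVA challenge in Sham (left) and PM (right), for all windows, the 52 member windows and the lists of related genes, with the number of windows of each. The members lie near all windows in PM, at 34.6% lower and 9.62% higher, and the ILC2 list, in which Rora holds 158 of 275 windows and most of the falling ones, and the Il1rl1 neighbours extend further to the lower side.

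Windows of genes that mark cell types were counted beside the share of all windows, of which 13.3% rose and 22.3% fell in Sham and 9.26% rose and 34.8% fell in PM. Their part in the changes of the alarmins and receptors was not tested. The mean over 15 windows of Ptprc, which encodes the leucocyte antigen CD45, ranged from 73.0 to 75.4% in Sham and 70.3 to 72.5% in Sham-OVA, and from 74.2 to 76.0% in PM and 70.6 to 72.2% in PM-OVA. Over 3 B cell genes it ranged from 69.8 to 72.2%, 62.5 to 65.5%, 70.8 to 72.3% and 60.99 to 66.8% in Sham, Sham-OVA, PM and PM-OVA. Over 5 eosinophil genes the ranges were 68.6 to 70.7%, 65.5 to 67.6%, 69.3 to 71.4% and 65.5 to 66.9%. None of these 3 sets of ranges overlapped between challenged and unchallenged offspring, as was so for the ILC2 list above. In PM the T cell, macrophage and other interleukin lists did not overlap either. For single windows this held for 8.58% and 12% of all windows in Sham and PM. These means are as deposited, and the mean over all windows also fell, from 69.1 to 68.8% in Sham and from 69.4 to 68.4% in PM. The windows of Ptprc went both ways, with 5 upward and 6 downward in Sham and 5 upward and 8 downward in PM, and 3 of those that fell were DMRs, with differences of -19.1, -14.6 and -12.5 points in Sham. Of 6 windows of the B cell genes 1 rose and 5 fell, then 0 rose and 5 fell, and of 16 windows of the eosinophil genes 9 and 10 fell and 0 rose. Of the windows of 8 T cell genes, 10 rose and 21 fell in Sham and 6 rose and 23 fell in PM, out of 68, which with the libraries centred became 12 and 16, then 9 and 13. As deposited these are 14.7% upward and 30.9% downward, then 8.82% and 33.8%, the latter near all windows. For 4 macrophage genes these counts were 2 and 13, then 1 and 19, of 44 (29.5% and 43.2% downward), and for 3 mast cell genes 12 and 5, then 10 and 9, of 35 (34.3% and 28.6% upward).

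The structural lists differed in direction. For 5 endothelial genes 34 of 74 windows rose and 5 fell in Sham, and 32 rose and 9 fell in PM (45.9% and 43.2% upward). Ranges of their mean were 66.5 to 69.4%, 69.2 to 71.7%, 66.3 to 70.2% and 69.1 to 71.4% in the 4 groups, which overlapped. Of the 3 endothelial DMRs in Sham, a window of Cdh5 and a window of Pecam1 rose, by 11.1 and 12.5 points. The window at the start of Pecam1 went the other way, with -18.0 points in Sham and -15.9 points in PM. For 8 epithelial genes 12 rose and 4 fell in Sham and 6 rose and 7 fell in PM, of 48 windows (25% and 12.5% upward), and in PM this became 16 and 4 with the libraries centred. For 4 tuft cell genes 5 rose and 25 fell, then 3 rose and 39 fell, of 92 (27.2% and 42.4% downward), and with the libraries centred 10 and 17, then 8 and 22. For 5 fibroblast and smooth muscle genes 8 rose and 19 fell, then 4 rose and 23 fell, of 52 (36.5% and 44.2% downward), and with the libraries centred 9 and 16, then 10 and 15.

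The windows of other genes whose profile over the 29 libraries was most like that of Il33 window 2, after each window's own mean was subtracted, were intronic windows of Rcan1, Epb41l2, Phc2, Trappc9 and Zc3h3. Their root mean square difference from it was 2.04 to 2.17 points, where the median over 258503 windows was 4.99 points. They rose by 5.49 points (Rcan1), 8.64 points (Epb41l2), 8.94 points (Phc2), 6.88 points (Trappc9) and 6.81 points (Zc3h3) in Sham. Il33 window 2 was taken for this as the member with the greatest mean absolute difference after OVA challenge, so the likeness is a description of these libraries.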

How the data were processed

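Whole-genome enzymatic methyl-sequencing (NEBNext Enzymatic Methyl-seq with unmethylated lambda DNA) was measured in lung DNA of 29 offspring. Per the labels and the methods, the authors used Trim Galore for trimming and the DRAGEN methylation pipeline for mapping to GRCm38, and summarised them in SeqMonk in windows of 100 CpG cytosines with at least 10 informative, retaining windows over an Ensembl gene. The deposited values are the percent methylation per window and library, made by the authors with no stated normalisation between libraries, and replicates were not pooled. The study states a high mean genome coverage per library, but the table used holds no read counts or coverage per window, so the depth behind a single window is not known and no interval from depth is given. The study's own test on counts could not be run on percentages.

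Groups were taken from the labels. Windows with at least 3 values in every group were kept (259167, with 1519 left out). The log2 of (percent + 1) over (100 - percent + 1) was fitted with limma 3.58.1 in R 4.3.3 in 1 model of 4 groups, with 5 comparisons, each Benjamini-Hochberg adjusted over all windows. Differences are of mean percent, in points, and 95% intervals come from limma on the percent scale. Annotation was GENCODE M21, and promoter bases were the 2000 upstream of an annotated start. Promoter sequences were from RefSeq (GRCm38.p6, a C57BL/6J reference). Steps were tested on simulated data. The named windows were those with promoter bases, any DMR, and the window with the smallest p per gene for each OVA comparison (23 windows), and for the maternal comparisons and interaction the member with the smallest p. The others are given as counts and ranges, or named after their values were seen. The member genes and lists were chosen with earlier results of these data known. Replicate numbers in the titles showed no pairing of samples: same-numbered libraries of 2 groups had deviations that correlated between -0.0669 and 0.0879. The library names number some Sham-OVA and PM-OVA samples otherwise. Pairing by those names, by dam or by processing was not tested. Listed genes without a window in the table used (Myd88, Il1a, Il36a, Il36b, Il36g and Ms4a1) were not analysed here. Alternatives were the percent scale, 5 points added, centred libraries, complete windows, only the groups compared, a replicate block, stricter thresholds, a trended robust prior, length-weighted gene means and leaving out each library.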

Additional observations from a re-analysis of the deposited data

Results flagged for a closer look

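In 5 of 92 sets of libraries tested (the 23 named windows in each of 4 groups), 1 library stood further from its nearest neighbour than Dixon's 95% critical value, where chance gives about 1 in 20. Crlf2 window 2 had 3 of them, at 0.529% in Sham replicate 3 (the nearest at 0%), 1.32% in PM replicate 3 and 3.31% in PM-OVA replicate 3. Il17rb window 1 was at 36.2% in PM-OVA replicate 6, with the nearest at 33.8%. Il1rap window 1 was at 4.84% in PM replicate 2, with the nearest at 2.94%.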

How the results depend on the processing

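With an adjusted p under 0.000001 the counts fell to 0 of 52 windows for both OVA comparisons and to 0 gene means in Sham and 0 in PM, and with a least difference of 5 points to 3 and 2 windows, since these settings are stricter by construction. Centring the libraries gave 2 gene means in PM in place of 5. The cause was not tested. Leaving out each library in turn gave 11 to 15 windows for OVA in Sham, 21 to 25 for OVA in PM, 0 to 0 for the maternal comparisons and the interaction and for DMRs, and 1 to 3 gene means in Sham and 4 to 6 in PM. The count of 1 gene mean in Sham came without Sham replicate 2, Sham-OVA replicate 3 or Sham-OVA replicate 6, and without PM-OVA replicate 7 the windows that rose in PM were 3 in place of 5. The name of that PM-OVA library holds Rel, unlike most PM-OVA libraries, and what this stands for is not given. Among the named windows that passed, Il1rap window 20 in Sham, Crlf2 window 5 in PM and Tslp window 2 in PM each lost their call in 5, 2 and 1 of 29 such fits, and the others lost none. None of the named windows that passed changed sign under the alternatives run. The signs of other windows, of gene means and of values that did not pass were not followed. Fitting the replicate number as a block gave 13 and 22 windows and 3 and 5 gene means for OVA in Sham and in PM, and 0 for the maternal comparisons and the interaction, with no named call lost. Same-numbered libraries correlated best with each other in 1 or 2 of 7 pairs. The depth behind a single window is not in the table, so its part in the spread between libraries was not tested.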
